A study of Mus musculus with 10 samples.

Results

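Alcohol dehydrogenases (Adh), aldehyde dehydrogenases (Aldh), aldo-keto reductases (Akr) and hydroxysteroid dehydrogenases (Hsd) were followed in mouse liver and liver tumours. The members were every entry of the expression table whose symbol starts with Adh, Aldh, Akr or Hsd followed by a digit, without Aldh18a1, Akr1d1 and Hsd3b7, which gave 52 of 16697 genes. The rule reads symbols and no measured values. RNA sequencing covered normal liver (NL, n = 4), tumours raised in the liver with c-MYC (c-MYC, n = 3) and tumours raised with c-MYC plus FOXO1AAA (c-MYC/FOXO1AAA, n = 3). FOXO1AAA is a MYC-tagged FOXO1, a forkhead transcription factor, altered so that it stays active. Plasmids carrying the genes behind the EF1α promoter were delivered to hepatocytes by hydrodynamic tail vein injection with Sleeping Beauty transposase, and the c-MYC mice received the empty vector in place of FOXO1AAA. The labels give C57BL/6 and a wild-type genotype for every sample, whereas the methods of the study and the extraction notes name wild-type FVB mice. One description of the control tumours also names MCL1, which the plasmid list for this experiment does not, so the sources differ on whether the c-MYC tumours carried it. Tumour tissue was taken from mice euthanised for their tumour burden, both sexes were used in the study, and mouse ages are not given in the sources used here. Summed Y-linked genes stood at 74.1 to 76.6 FPKM per library in NL, 52.9 to 72.6 in c-MYC and 35.8 to 55.5 in c-MYC/FOXO1AAA, so every library held male tissue. Nothing in the labels ties the libraries to named animals, so the tests measure the spread between these samples.

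These enzymes move hydride between a substrate and NAD or NADP. Alcohol dehydrogenases oxidise ethanol and retinol to aldehydes, and aldehyde dehydrogenases carry aldehydes on to acids. Aldo-keto reductases run mostly the other way, reducing aldehydes, sugars and keto steroids. Hydroxysteroid dehydrogenases switch steroid hormones between active and inactive forms. Hepatocytes are rich in most of them, and several lie in tandem gene clusters whose members share an ancestor.

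Close relatives in 3 of those clusters moved in different ways, so the start-proximal sequence of a pair from each is shown, from 250 bases before to 50 bases after the RefSeq start site on GRCm38.p6, 5′ to 3′ on the strand of the gene, with CpG dinucleotides in capitals. The window of Adh1 (chr3:138277335-138277634, plus strand) holds 6 CpG and that of Adh5 (chr3:138442843-138443142, plus strand) 26. The window of Hsd3b5 (chr3:98645485-98645784, minus strand) holds 1 and that of Hsd3b1 (chr3:98859745-98860044, minus strand) 2. The window of Akr1c6 (chr13:4434093-4434392, plus strand) holds 0 and that of Akr1c18 (chr13:4150597-4150896, minus strand) 5. The RefSeq start lay 16594 bases from the annotated gene start for Adh1 and 15282 bases from it for Hsd3b5, and within 37 bases of it for the other 4 genes.
Adh1: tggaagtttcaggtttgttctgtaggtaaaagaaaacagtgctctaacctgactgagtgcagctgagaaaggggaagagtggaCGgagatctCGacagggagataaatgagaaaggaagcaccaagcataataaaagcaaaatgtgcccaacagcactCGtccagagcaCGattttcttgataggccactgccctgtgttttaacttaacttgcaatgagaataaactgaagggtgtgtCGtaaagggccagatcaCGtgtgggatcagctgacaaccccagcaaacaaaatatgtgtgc
Adh5: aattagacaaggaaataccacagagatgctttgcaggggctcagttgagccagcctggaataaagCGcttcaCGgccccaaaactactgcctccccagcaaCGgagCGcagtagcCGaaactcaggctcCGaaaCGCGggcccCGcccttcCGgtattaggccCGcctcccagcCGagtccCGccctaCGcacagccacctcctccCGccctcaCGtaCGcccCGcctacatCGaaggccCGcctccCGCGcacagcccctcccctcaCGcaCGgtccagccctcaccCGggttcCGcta
Hsd3b5: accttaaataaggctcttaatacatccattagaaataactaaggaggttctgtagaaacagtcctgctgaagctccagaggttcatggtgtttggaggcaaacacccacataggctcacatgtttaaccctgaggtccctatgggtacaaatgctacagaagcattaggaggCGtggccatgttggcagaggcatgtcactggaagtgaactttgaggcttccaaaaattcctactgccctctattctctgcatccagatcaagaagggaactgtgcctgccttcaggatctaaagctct
Hsd3b1: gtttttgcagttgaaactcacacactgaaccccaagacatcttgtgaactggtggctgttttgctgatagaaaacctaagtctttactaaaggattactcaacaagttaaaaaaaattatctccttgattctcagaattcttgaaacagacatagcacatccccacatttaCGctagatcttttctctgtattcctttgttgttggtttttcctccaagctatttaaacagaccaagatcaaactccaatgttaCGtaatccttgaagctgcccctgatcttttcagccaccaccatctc
Akr1c6: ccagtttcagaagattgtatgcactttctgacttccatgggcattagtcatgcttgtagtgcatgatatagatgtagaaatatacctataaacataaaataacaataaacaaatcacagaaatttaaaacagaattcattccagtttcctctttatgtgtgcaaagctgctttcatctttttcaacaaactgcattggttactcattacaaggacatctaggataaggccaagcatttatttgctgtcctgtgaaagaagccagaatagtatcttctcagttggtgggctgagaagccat
Akr1c18: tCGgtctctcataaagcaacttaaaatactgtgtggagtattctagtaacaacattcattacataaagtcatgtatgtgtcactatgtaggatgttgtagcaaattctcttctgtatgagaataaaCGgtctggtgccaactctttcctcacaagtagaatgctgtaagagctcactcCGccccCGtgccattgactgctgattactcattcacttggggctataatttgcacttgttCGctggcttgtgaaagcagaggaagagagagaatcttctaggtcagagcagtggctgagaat

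The libraries held 13123484 to 20546829 reads in the listed genes. Foxo1 stood at 83.1 ± 12.8 FPKM (fragments scaled to transcript length and library size, mean ± SD, n = 3) in c-MYC/FOXO1AAA, at 5.63 ± 0.721 in c-MYC (n = 3) and at 7.14 ± 0.532 in NL (n = 4). The table's Myc entry went against the name of the tumours, at 4.17 to 22.2 FPKM in NL, 0.561 to 1.05 in c-MYC and 0.876 to 1.11 in c-MYC/FOXO1AAA. The species and length of the c-MYC sequence in the plasmid are not given in the sources used here, so that entry cannot show whether the transgene was expressed, and the c-MYC part of the labels was not checked. Mcl1 stood at 195 ± 10.5 in NL, 244 ± 8.72 in c-MYC and 158 ± 3.91 in c-MYC/FOXO1AAA (SD). Hepatocyte markers identified NL as liver (8 of 8 in the table, summing to 77880 to 87070 FPKM per library), and their sum was 4.95% to 7.49% of the NL mean in c-MYC and 1.09% to 1.98% in c-MYC/FOXO1AAA. The summed stellate cell and fibroblast markers stood at 11% to 38.2% of NL in c-MYC and 351% to 448% in c-MYC/FOXO1AAA. Genes of that list were divided in c-MYC/FOXO1AAA. By the limma test described below, 4 of the 7 rose against NL and 2 fell. Des stood at 2646% to 3192% of NL and Dcn at 255% to 447%. Lrat stood at 4.32% to 11.8% and Rgs5 at 12.8% to 18.1%. The scaling factors used by the authors lay at 0.6486 to 0.6838 in NL, 1.2562 to 1.2946 in c-MYC and 1.4538 to 1.5022 in c-MYC/FOXO1AAA, so that a read counts for more FPKM in NL than in a tumour library of the same depth.

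In normal liver the members took 1.56% ± 0.0216 of all reads (SD, n = 4). Their share was 0.476% ± 0.00929 in c-MYC and 0.285% ± 0.0275 in c-MYC/FOXO1AAA (n = 3 each). In FPKM, the summed alcohol dehydrogenases stood at 6.48% of the NL mean in c-MYC and 5.90% in c-MYC/FOXO1AAA, the aldehyde dehydrogenases at 17.3% and 8.06%, the aldo-keto reductases at 14.5% and 15%, and the hydroxysteroid dehydrogenases at 7.13% and 4.67%. No family sum in any tumour library reached the lowest NL library. In bulk tissue, fewer hepatocytes and less RNA per hepatocyte cannot be told apart.

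Levels were ordered between genes after rescaling each FPKM to the longest coding transcript, because the table used a much shorter transcript for several members, 5.89 times shorter for Aldh2, 4.72 times for Aldh9a1, 4.08 times for Hsd11b1 and 7.81 times for Akr1c19. On that scale NL was led by Adh1 at a mean of 1937 FPKM, Akr1c6 at 1337, Aldh1a1 at 1008, Aldh2 at 909 and Hsd11b1 at 675. In c-MYC the order was led by Aldh1b1 at 437, Akr1a1 at 208 and Adh5 at 152. In c-MYC/FOXO1AAA it was led by Akr1a1 at 224, Akr1b3 at 99.6 and Adh5 at 82.8. All other FPKM are given as deposited and compare a gene with itself.

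**Figure D1:**
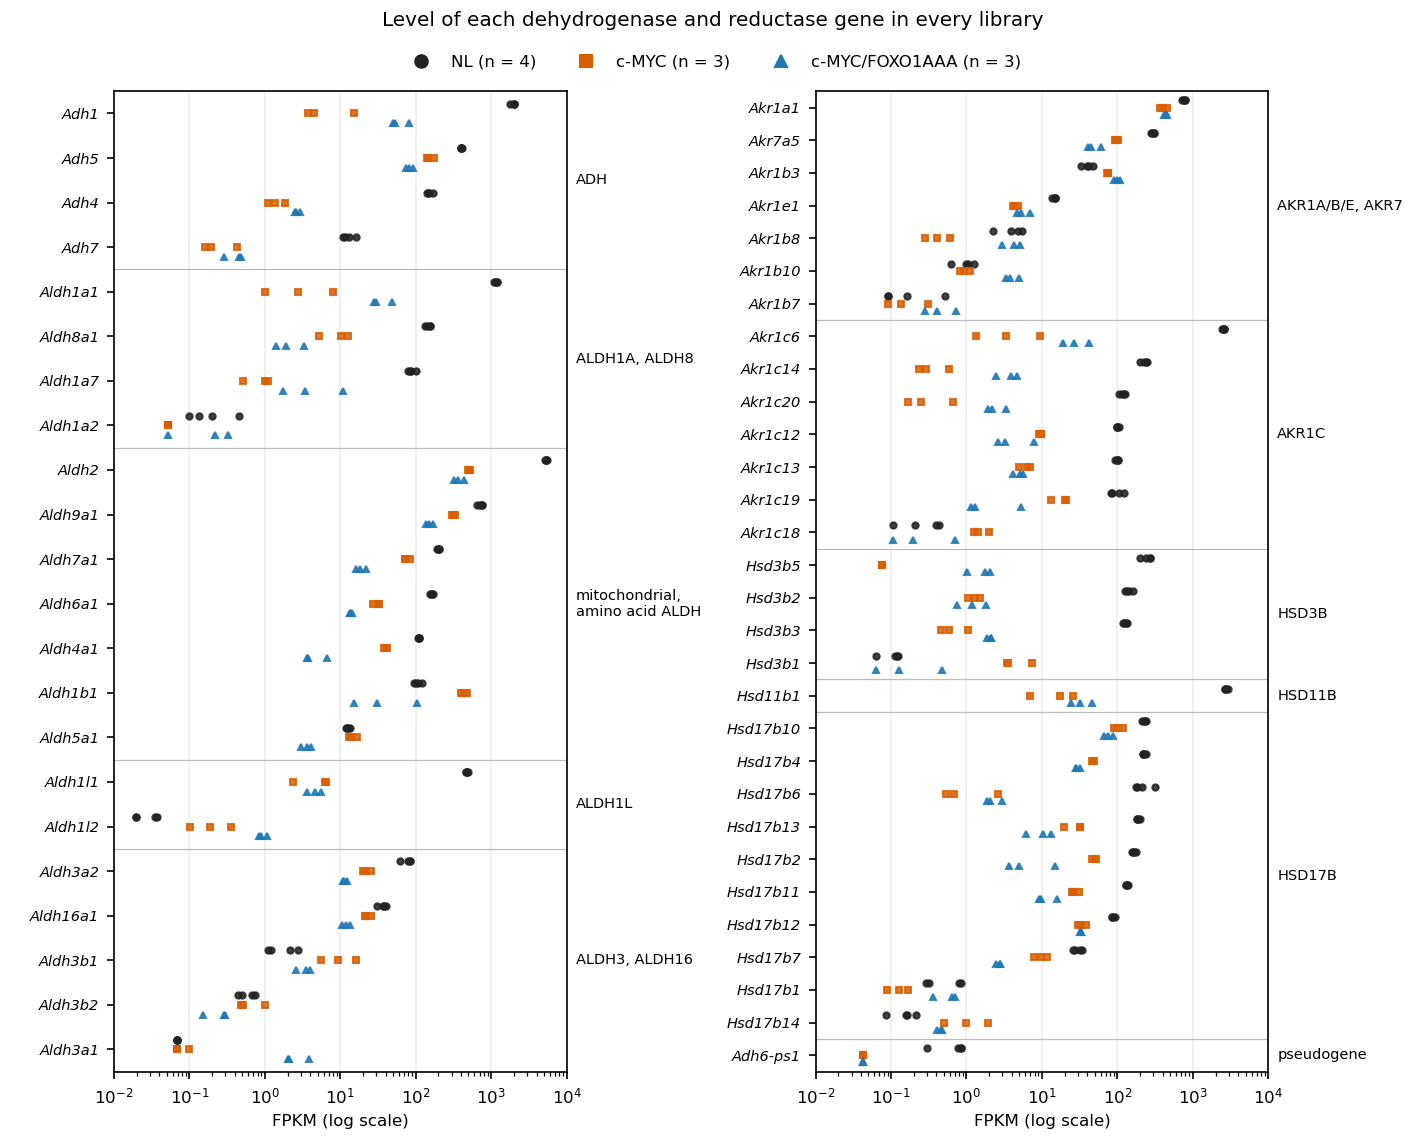
FPKM as deposited (log scale) of all 52 members in every library, grouped by enzyme class, with NL as black circles, c-MYC as orange squares and c-MYC/FOXO1AAA as blue triangles. Most members sit far to the left in both tumour groups. Aldh1b1, Akr1b3, Akr1b10, Hsd3b1, Akr1c18, Aldh3b1, Aldh3a1, Aldh1l2 and Hsd17b14 sit to the right of NL in a tumour group. Points at the left end of a row with no spread hold no reads and show the prior count.

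Of the 52 members, 45 reached 1 FPKM in at least 3 libraries and were tested with limma for a change above 1.5-fold, the call resting on an adjusted p under 0.05. The filter passes Adh7 only through NL, Hsd3b1 and Akr1c18 only through c-MYC and Aldh3a1 only through c-MYC/FOXO1AAA, the groups in which they are high. For these members the direction of the call follows from the filter. Their calls were also made with no filter on low values. Aldh1a2, Aldh1l2, Aldh3b2, Akr1b7, Hsd17b1, Hsd17b14 and the pseudogene Adh6-ps1 stayed under it and are described by their levels.

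In c-MYC against NL, 36 of the 45 members were called lower, where 23.6% of all 14017 genes tested were called lower. Another 5 were called higher, where 24.5% of all genes were. The median log2 fold change of the members was -2.29, against 0.08 over all genes, and the libraries did not overlap for 42 of 45 members (73.9% of all genes). Among the 36 that fell, 12 were left under 1% of the NL mean, 6 at 1% to 10% and 18 above that. All 8 pericentral and all 8 periportal hepatocyte markers (Hsd17b13 is one of them) and 7 of the 8 general hepatocyte markers were called lower in the same comparison, and their part in the members' change was not tested.

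In c-MYC/FOXO1AAA against c-MYC, 18 of the 45 members were called lower, where 12.7% of all genes were called lower, and 11 were called higher, where 15.9% were. The median was -0.43 against 0.03 over all genes, and the libraries did not overlap for 36 of 45 members (63.4% of all genes). In c-MYC/FOXO1AAA against NL, 37 members were called lower (26.6% of all genes) and 3 higher (31.2%), with a median of -3.58 against 0.21, and 40 did not overlap (80.1%). Of the 37 that fell, 3 were left under 1% of NL and 23 at 1% to 10%. The 3 comparisons share their groups and are not independent of each other.

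The counts depended on how libraries were brought to a common scale. With every library set to the same FPKM total, the median of all genes moved to 1.01 in c-MYC against NL, and 7061 genes were called higher and 1895 lower in place of 3435 and 3305. The members' median moved with it to -1.37, and 23 members were called lower and 6 higher. The lower calls lost were those of Adh5, Akr1a1, Akr1c19, Akr1e1, Akr7a5, Aldh3a2, Aldh4a1, Aldh7a1, Aldh9a1, Hsd17b2, Hsd17b7, Hsd17b10 and Hsd17b12. In c-MYC/FOXO1AAA against NL the median of all genes moved to 1.31, with 8129 genes called higher and 2099 lower in place of 4371 and 3728, and 31 members were called lower and 4 higher. In c-MYC/FOXO1AAA against c-MYC it moved to 0.20, with 14 members called lower and 12 higher. The family sums rose with this scaling, to 12.3% of NL in c-MYC and 12.6% in c-MYC/FOXO1AAA for the alcohol dehydrogenases, 33.0% and 17.2% for the aldehyde dehydrogenases, 27.5% and 32.2% for the aldo-keto reductases and 13.6% and 9.96% for the hydroxysteroid dehydrogenases. The order of the tumour groups turned for the alcohol dehydrogenases, whose libraries overlapped on both scales.

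The 4 alcohol dehydrogenases tested all fell in c-MYC. Adh1, the main liver enzyme for ethanol and retinol, was measured at 1992, 1756, 2023 and 1977 FPKM in NL, at 4.46, 3.74 and 15.1 in c-MYC and at 49.7, 82.2 and 53.4 in c-MYC/FOXO1AAA. The 3 groups did not overlap. In c-MYC it fell by 8.26 ± 0.40 on the log2 scale (SE, limma, adjusted p = 7.21e-08) and with FOXO1AAA it was 3.25 ± 0.43 above c-MYC (limma, adjusted p = 0.000384), while still at 3.19% of its NL mean. Adh4, which oxidises retinol and longer alcohols, read 168, 145, 152 and 143 in NL, 1.09, 1.38 and 1.87 in c-MYC and 2.47, 2.61 and 2.88 in c-MYC/FOXO1AAA. Its tumour groups did not overlap, yet their difference of 0.91 ± 0.18 did not pass (limma, adjusted p = 0.14). It passed without c-MYC 3 (1.11, limma, adjusted p = 0.0103), with every library at the same FPKM total (1.08, adjusted p = 0.0316) and with no fold threshold in the test (adjusted p = 0.00115). Adh7, the stomach-type enzyme, stood at 10.9 to 16 FPKM in NL and under 0.5 FPKM in all 6 tumour libraries.

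Adh5, which also acts as the glutathione-dependent formaldehyde dehydrogenase of most tissues, kept far more of its level. It was measured at 408, 398, 394 and 395 FPKM in NL, at 174, 144 and 140 in c-MYC and at 73.5, 81.6 and 93.2 in c-MYC/FOXO1AAA. Each group lay below the one before it without overlap. The fall in c-MYC was 1.39 ± 0.11 (SE, limma, adjusted p = 4.13e-05). This call was lost with every library at the same FPKM total and with quantile normalization, and values over all alternatives ran from -1.49 to -0.47. The further difference of -0.88 ± 0.12 was called (limma, adjusted p = 0.047), but that call was lost on leaving out any NL library, c-MYC 1, c-MYC 2, c-MYC/FOXO1AAA 1 or c-MYC/FOXO1AAA 2, with values of -0.92 to -0.79. Adh6-ps1, a pseudogene between Adh1 and Adh4, held 71 reads over the NL libraries and 0 in either tumour group, at least 11.1-fold lower in c-MYC and at least 14.4-fold lower in c-MYC/FOXO1AAA against a floor of 3 reads per library. Intervals and floors of this kind cover counting error only.

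The 3 tested enzymes of the class of retinaldehyde and cytosolic aldehyde dehydrogenases all fell in c-MYC, and between the tumours 2 were called higher and 1 lower. Aldh1a1, a cytosolic enzyme that makes retinoic acid, was measured at 1210, 1079, 1137 and 1205 FPKM in NL, at 2.79, 1.01 and 8.07 in c-MYC and at 30.1, 48.9 and 28.3 in c-MYC/FOXO1AAA. The 3 groups were apart, with the largest relative spread in c-MYC. It fell by 8.67 ± 0.54 in c-MYC (SE, limma, adjusted p = 3.88e-07) and differed by 3.61 ± 0.57 between the tumour groups (limma, adjusted p = 0.0011). Its neighbour on chromosome 19, Aldh1a7, read 84.5, 102, 78.6 and 85.7 in NL, 0.506, 1.11 and 1.01 in c-MYC and 1.73, 3.43 and 11 in c-MYC/FOXO1AAA. The rise between the tumour groups, 2.28 ± 0.55 (limma, adjusted p = 0.0235), was widest through c-MYC/FOXO1AAA 3 and was not called without c-MYC 1 (1.93, adjusted p = 0.0916).

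Aldh8a1, which oxidises retinaldehyde and an intermediate of tryptophan breakdown, moved the other way between the tumours. It was measured at 155, 139, 133 and 154 FPKM in NL, at 5.19, 10.1 and 12.6 in c-MYC and at 1.42, 1.93 and 3.33 in c-MYC/FOXO1AAA. Each tumour group lay below the one before it, by 4.06 ± 0.32 in c-MYC (SE, limma, adjusted p = 3.98e-06) and by a further 2.06 ± 0.34 (limma, adjusted p = 0.0039). Aldh1a2, the retinaldehyde dehydrogenase of mesenchymal cells, held 15 reads over the NL libraries, 0 over the c-MYC libraries and 23 over the c-MYC/FOXO1AAA libraries. Against the floor its group mean was at least 2.38-fold lower in c-MYC than in NL and with FOXO1AAA at least 2.02-fold above c-MYC. Single libraries held 2, 1, 9 and 3 reads in NL and 0, 11 and 12 in c-MYC/FOXO1AAA. The tumour groups thus overlapped.

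Of the 7 mitochondrial and amino acid linked aldehyde dehydrogenases, 5 were called lower and 1 higher in c-MYC against NL, and 6 were called lower between the tumour groups. Aldh2, which clears acetaldehyde in mitochondria, read 5553, 5384, 5120 and 5366 FPKM in NL, 519, 505 and 498 in c-MYC and 326, 436 and 360 in c-MYC/FOXO1AAA. It fell by 3.40 ± 0.11 in c-MYC (SE, limma, adjusted p = 4.57e-09), and the tumour groups differed by -0.45 ± 0.11 without passing (limma, adjusted p = 1.0). Aldh2 was the only one of the 7 not called between the tumours.

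Aldh4a1, the proline-breakdown enzyme that yields glutamate, was measured at 110, 107, 110 and 110 FPKM in NL, at 40, 41.2 and 38.3 in c-MYC and at 3.64, 3.71 and 6.62 in c-MYC/FOXO1AAA. Most of its fall lay between the tumour groups, at -3.16 ± 0.19 (SE, limma, adjusted p = 1.32e-06) against -1.45 ± 0.18 between c-MYC and NL (limma, adjusted p = 0.000944). Aldh7a1, which breaks down lysine, had the same order, with 193 to 203 FPKM in NL, 71 to 84.1 in c-MYC and 15.9 to 21.6 in c-MYC/FOXO1AAA, a difference of -2.04 ± 0.12 between the tumours (limma, adjusted p = 2.46e-06). Aldh5a1, which completes the breakdown of GABA, overlapped between NL (11.8 to 13.5 FPKM) and c-MYC (13 to 16.7) and lay at 3 to 4.13 in c-MYC/FOXO1AAA, 2.01 ± 0.15 below c-MYC on the log2 scale. Aldh6a1, of valine breakdown, and Aldh9a1, of carnitine synthesis, stepped down by 1.14 ± 0.10 and 1.05 ± 0.10 between the tumour groups after larger falls from NL.

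Aldh1b1, a mitochondrial enzyme related to Aldh2, went against the rest of its class. It was measured at 122, 101, 106 and 96.1 FPKM in NL, at 396, 478 and 436 in c-MYC and at 30.5, 15.2 and 105 in c-MYC/FOXO1AAA. All c-MYC libraries were above every other library, and c-MYC/FOXO1AAA 3 fell within the NL range. The rise in c-MYC was 2.04 ± 0.49 (SE, limma, adjusted p = 0.0167) and the difference between the tumour groups -3.57 ± 0.53 (limma, adjusted p = 0.000677). Against NL the value in c-MYC/FOXO1AAA was -1.53 ± 0.49 and was not called (limma, adjusted p = 0.0711), and without c-MYC/FOXO1AAA 3 it was -2.29 and was called (adjusted p = 6.12e-05).

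The folate-linked pair was divided by compartment. Aldh1l1, the cytosolic 10-formyltetrahydrofolate dehydrogenase of hepatocytes, read 474, 467, 490 and 470 FPKM in NL, 2.35, 6.52 and 6.17 in c-MYC and 3.66, 5.59 and 4.57 in c-MYC/FOXO1AAA, a fall of 6.70 ± 0.31 in c-MYC (SE, limma, adjusted p = 5.01e-08). Its tumour groups overlapped, with a difference of -0.01 ± 0.33. Aldh1l2, the mitochondrial form, held 2 reads over the NL libraries, 65 over the c-MYC libraries and 418 over the c-MYC/FOXO1AAA libraries. Its levels were 0.101 to 0.354 FPKM in c-MYC and 0.848 to 1.08 in c-MYC/FOXO1AAA, a ratio to NL of 22.9 (95% counting interval 6.10 to 193) and 111 (30.4 to 916).

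In the list of 12 other folate one-carbon enzymes, 4 were called higher and 2 lower in c-MYC against NL, and 1 higher and 6 lower in c-MYC/FOXO1AAA against c-MYC. Over all genes tested the shares were 24.5% higher and 23.6% lower in the first comparison, and 15.9% and 12.7% in the second. Mthfd2, the mitochondrial methylene-tetrahydrofolate dehydrogenase of dividing cells, rose from 1.18 ± 0.729 FPKM in NL (SD, n = 4) to 19.6 ± 4.48 in c-MYC (n = 3) and stood at 34.6 ± 3.20 in c-MYC/FOXO1AAA (n = 3). Its relative Mthfd2l fell to 0.247 ± 0.0739 from 1.67 ± 0.240 and stood at 6.97 ± 0.324 in c-MYC/FOXO1AAA, 4.86 ± 0.25 above c-MYC on the log2 scale (SE, limma, adjusted p = 2.63e-07). Gldc, of the glycine cleavage system, differed by -5.06 ± 0.73 between the tumours (limma, adjusted p = 0.00045).

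Among the fatty aldehyde dehydrogenases, Aldh3a2, which clears fatty aldehydes at the endoplasmic reticulum, fell by 1.78 ± 0.13 in c-MYC (SE, limma, adjusted p = 9.83e-06), from 61.6 to 83.5 FPKM in NL to 19.7 to 25.7. Aldh3a1, known as a corneal and stress-inducible enzyme, had 0 reads in NL, 1 in c-MYC and 347 in c-MYC/FOXO1AAA, where it was measured at 2, 3.88 and 2.11 FPKM. The ratio of its reads between the tumour groups was 260 (95% counting interval 46.4 to 10303), it was at least 14.5-fold higher than NL, and both rises were called (limma, adjusted p = 1.54e-06 and 1.74e-07). All 3 c-MYC/FOXO1AAA libraries carried it, the only group through which it passed the filter.

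Aldh3b1, which acts on lipid-derived aldehydes at membranes, read 2.77, 1.19, 1.1 and 2.14 FPKM in NL, 16.3, 5.5 and 9.35 in c-MYC and 2.55, 3.94 and 3.46 in c-MYC/FOXO1AAA. It rose by 2.50 ± 0.41 in c-MYC (SE, limma, adjusted p = 0.00126), with every c-MYC library above all others. The difference of -1.53 ± 0.44 between the tumour groups did not pass (limma, adjusted p = 0.0886). It passed without c-MYC 2 (-1.92, limma, adjusted p = 0.0257), with quantile normalization (-1.79, adjusted p = 0.0282) and with no fold threshold (adjusted p = 0.0121). Aldh16a1, a family member whose catalytic activity is in doubt, was at 31 to 40.1 FPKM in NL, 21.3 to 25.8 in c-MYC and 10.5 to 13.6 in c-MYC/FOXO1AAA, and was not called between the first 2 groups (-0.66 ± 0.13, limma, adjusted p = 0.456). Aldh3a2 and Aldh16a1 both differed by -0.95 between the tumour groups (limma, adjusted p = 0.0467 and 0.0401), and both calls were lost on leaving out NL 4, c-MYC 3, c-MYC/FOXO1AAA 1 or c-MYC/FOXO1AAA 2. Aldh3a2 also lost its call without NL 1, NL 2, c-MYC 2 or c-MYC/FOXO1AAA 3, and Aldh16a1 without NL 3 or c-MYC 1, with values of -1.0 to -0.84 over all of these. Aldh3b2 stayed at or under 0.997 FPKM in all libraries.

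Of the aldehyde and aldose reductases, Akr1b3, the aldose reductase that opens the polyol pathway, was the one that rose in both tumour groups. It was measured at 47.7, 33.4, 39.2 and 42.2 FPKM in NL, at 74.5, 72.6 and 76 in c-MYC and at 109, 100 and 89.5 in c-MYC/FOXO1AAA. The groups did not overlap. The rise in c-MYC, 0.88 ± 0.12 (SE, limma, adjusted p = 0.0365), was not called without NL 2, NL 3 or any of the c-MYC libraries (0.79 to 0.90), while that in c-MYC/FOXO1AAA against NL, 1.30 ± 0.12 (limma, adjusted p = 0.00019), was called without each library in turn. In the list of 6 polyol and neighbouring enzymes, all 6 were called lower in c-MYC, among them Sord, which turns the sorbitol made by Akr1b3 into fructose, at 663 ± 20.8 FPKM (NL, SD, n = 4), 80.9 ± 14.9 in c-MYC and 20.1 ± 2.44 in c-MYC/FOXO1AAA (n = 3 each).

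Akr1a1, a broad aldehyde reductase that also serves ascorbate synthesis in mice, was the member that kept most of its level among those that fell. It read 798, 751, 796 and 729 FPKM in NL, 450, 401 and 366 in c-MYC and 416, 444 and 454 in c-MYC/FOXO1AAA. It was called lower in c-MYC (-0.93 ± 0.10, SE, limma, adjusted p = 0.00619) and in c-MYC/FOXO1AAA against NL (-0.81 ± 0.10, adjusted p = 0.034), but with every library at the same FPKM total the first value was 0.00 and the second 0.29, and with quantile normalization the second was 0.26. The second call was also lost without NL 1, NL 3, c-MYC/FOXO1AAA 1 or c-MYC/FOXO1AAA 2, with values of -0.82 to -0.78. Akr7a5, which reduces succinic semialdehyde and aflatoxin dialdehyde, stepped down from 282 to 303 FPKM in NL to 93.7 to 103 in c-MYC and 40.8 to 59.9 in c-MYC/FOXO1AAA. Its second step of -1.03 ± 0.13 (limma, adjusted p = 0.014) was not called without c-MYC/FOXO1AAA 1 (-0.91) or c-MYC/FOXO1AAA 2 (-0.98). Akr1e1, an anhydrofructose reductase, fell by 1.72 ± 0.14 in c-MYC and differed by 0.33 ± 0.15 between the tumours, whose libraries overlapped.

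Akr1b8 and Akr1b10, beside Akr1b3 on chromosome 6, were low in NL and were called higher between the tumours. Akr1b8, a reductase of lipid aldehydes and retinal, was measured at 4.75, 3.91, 2.27 and 5.5 FPKM in NL, at 0.408, 0.283 and 0.608 in c-MYC and at 2.99, 4.3 and 5.08 in c-MYC/FOXO1AAA. The last group lay within the NL range, and the rise from c-MYC was 3.29 ± 0.38 (SE, limma, adjusted p = 0.000118). Akr1b10 overlapped between NL (0.617 to 1.27 FPKM) and c-MYC (0.808 to 1.1) and stood at 4.92, 3.75 and 3.36 in c-MYC/FOXO1AAA, above all other libraries, 2.08 ± 0.30 over c-MYC (limma, adjusted p = 0.00127) and 2.06 ± 0.28 over NL (adjusted p = 0.000383). Akr1b7 stayed under 1 FPKM, at 0.0924 to 0.527 in NL, 0.0924 to 0.305 in c-MYC and 0.283 to 0.729 in c-MYC/FOXO1AAA.

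The AKR1C enzymes, which reduce or oxidise steroids at several positions, had 6 of 7 members called lower in c-MYC. Akr1c6, a 17β-hydroxysteroid dehydrogenase, was measured at 2587, 2444, 2584 and 2568 FPKM in NL, at 3.36, 1.32 and 9.37 in c-MYC and at 27, 41.8 and 19.1 in c-MYC/FOXO1AAA. It fell by 9.52 ± 0.52 in c-MYC (SE, limma, adjusted p = 1.63e-07) and with FOXO1AAA stood 3.01 ± 0.56 above c-MYC (limma, adjusted p = 0.00382). Akr1c14, a 3α-hydroxysteroid dehydrogenase, read 239, 224, 200 and 244 in NL, 0.294, 0.237 and 0.584 in c-MYC and 2.46, 3.84 and 4.68 in c-MYC/FOXO1AAA, with log2 fold changes of -9.36 ± 0.30 and then 3.36 ± 0.32 (limma, adjusted p = 3.05e-05). Akr1c20 had the same order, at 105 to 128, 0.17 to 0.659 and 1.91 to 3.39 FPKM, with a difference of 2.99 ± 0.42 between the tumours. All 3 were below 3% of NL in c-MYC/FOXO1AAA.

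Akr1c19 and Akr1c18 instead fell between the tumours. Akr1c19 was measured at 82, 122, 105 and 83.8 FPKM in NL, at 20, 20.8 and 13.3 in c-MYC and at 1.14, 1.28 and 5.35 in c-MYC/FOXO1AAA, which puts the tumours -3.16 ± 0.49 apart (SE, limma, adjusted p = 0.00115). Akr1c18, the 20α-hydroxysteroid dehydrogenase that inactivates progesterone, was the one member of the class that rose in c-MYC, to 1.44, 1.26 and 1.98 FPKM from 0.436, 0.396, 0.107 and 0.208 in NL, with 0.107, 0.198 and 0.708 in c-MYC/FOXO1AAA. The rise was 2.62 ± 0.65 (limma, adjusted p = 0.0128), and the difference of -2.63 ± 0.70 between the tumours (adjusted p = 0.028) was not called without any single c-MYC library, c-MYC/FOXO1AAA 1 or c-MYC/FOXO1AAA 2, with values of -2.77 to -2.03. Akr1c18 passed the filter only through c-MYC. Akr1c12 and Akr1c13, which share 11.5% of their 100-base words so that reads may pass between them, fell from 93.6 to 106 FPKM in NL to 4.97 to 9.63 in c-MYC and were not called between the tumours.

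The 3β-hydroxysteroid dehydrogenases held the largest fall of all tested members in c-MYC. They also held the largest rise, that of Hsd3b1, which passed the filter only through c-MYC, so its direction follows from the filter. Hsd3b5, a male-predominant liver enzyme that works as a 3-ketosteroid reductase, was measured at 274, 200, 241 and 269 FPKM in NL, had 0 reads in all 3 c-MYC libraries and stood at 1.78, 2.06 and 1.03 in c-MYC/FOXO1AAA. In c-MYC it was at least 2354-fold lower than NL and with FOXO1AAA at least 14.8-fold above c-MYC, at 0.66% of NL. Hsd3b2 fell from 125 to 160 FPKM to 1.04 to 1.49 and overlapped between the tumours, at 0.747 to 1.79 in c-MYC/FOXO1AAA. Hsd3b3 fell from 117 to 136 to 0.458, 0.594 and 1.05 and stood at 1.87, 2.12 and 2.1 in c-MYC/FOXO1AAA, a rise of 1.62 ± 0.24 (SE, limma, adjusted p = 0.00376). Hsd3b2 and Hsd3b3 share sequence, with 5.70% of the 100-base words of Hsd3b2 found in Hsd3b3, so their values are not fully separate.

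Hsd3b1, the isoform that makes progesterone and androgen precursors in the adrenal and gonads, had 3 reads over the 4 NL libraries, 486 over the c-MYC libraries and 18 over the c-MYC/FOXO1AAA libraries. It read 3.56, 7.3 and 3.41 FPKM in c-MYC, the only group through which it passed the filter, against 0.0638 to 0.124 in NL and 0.0638 to 0.476 in c-MYC/FOXO1AAA. The ratio of reads between c-MYC and NL was 114 (95% counting interval 38.9 to 556), and the rise was called (limma, adjusted p = 2.71e-05), as was the value for c-MYC/FOXO1AAA against c-MYC, -4.82 ± 0.65 (SE, limma, adjusted p = 0.000231). In the list of adrenal and gonadal steroid markers, Star stood at 0.744 ± 0.141 FPKM in NL, 0.47 ± 0.0792 in c-MYC and 0.766 ± 0.097 in c-MYC/FOXO1AAA (SD), and Cyp11a1 at 0.0559, 0.0644 ± 0.0148 and 0.835 ± 0.118 in the same order. The summed list stood at 22.7% to 40.5% of NL in c-MYC, most of its NL sum being Cyp21a1, which went from 7.32 ± 5.37 FPKM in NL to 0.295 ± 0.107 in c-MYC (SD). Cyp17a1, which follows Hsd3b1 in steroid synthesis, was at 0.899 ± 0.349 FPKM in NL, 1.75 ± 0.751 in c-MYC and 0.0788 ± 0.0119 in c-MYC/FOXO1AAA, a difference of -4.41 ± 0.42 (SE, limma, adjusted p = 2.22e-05).

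**Figure D2:**
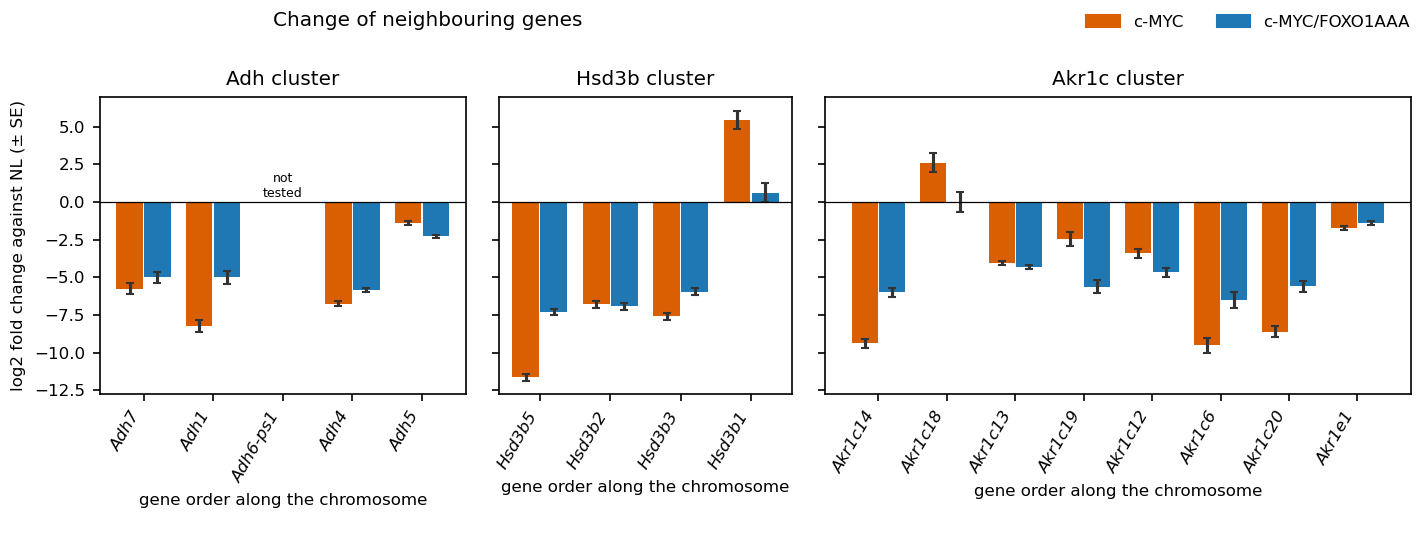
Log2 fold change against NL (bars, with SE) of neighbouring genes in the Adh, Hsd3b and Akr1c clusters, in chromosomal order, for c-MYC (orange) and c-MYC/FOXO1AAA (blue). Hsd3b1 at 5.45 and Akr1c18 at 2.62 rise in c-MYC beside neighbours at down to -11.64 and -9.52, and Adh5 at -1.39 shares its cluster with Adh1 at -8.26. The bars rest on log2 FPKM with a prior count and understate the change of genes with few reads.

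The clusters place these contrasts close together on GRCm38. The Adh genes span 237.7 kb of chromosome 3 (chr3:138217760-138455499), in the order Adh7, Adh1, Adh6-ps1, Adh4 and Adh5. The Hsd3b genes span 241.2 kb of the same chromosome (chr3:98618634-98859794), with Hsd3b5 at the one end and Hsd3b1 at the other. The Akr1c genes and Akr1e1 span 560.2 kb of chromosome 13 (chr13:4049011-4609174), where Akr1c18 lies between Akr1c14 and Akr1c13. The log2 fold changes in c-MYC against NL ran from -9.36 to 2.62 to -4.03 across these neighbours.

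Hsd11b1, which regenerates active glucocorticoid in liver, was measured at 2699, 2902, 2759 and 2659 FPKM in NL, at 17.3, 6.97 and 25.9 in c-MYC and at 24.2, 46.5 and 32.3 in c-MYC/FOXO1AAA. It fell by 7.56 ± 0.37 in c-MYC (SE, limma, adjusted p = 8.01e-08). The tumour groups overlapped and their difference of 1.18 ± 0.40 was not called (limma, adjusted p = 0.233). It was called without c-MYC 3 (1.59, limma, adjusted p = 0.0365) and with no fold threshold (adjusted p = 0.0284).

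All 8 of the 17β-hydroxysteroid dehydrogenases tested were called lower in c-MYC against NL, and 4 were called lower again in c-MYC/FOXO1AAA against c-MYC. With every library at the same FPKM total, Hsd17b2, Hsd17b7, Hsd17b10 and Hsd17b12 lost the first call. Hsd17b2 and Hsd17b10 also lost it with quantile normalization and with a 2-fold threshold. Hsd17b6, a retinol-dehydrogenase-like enzyme that works on androstanediols, fell most, from 210, 315, 184 and 179 FPKM in NL to 0.686, 0.531 and 2.58 in c-MYC, with 2.02, 2.94 and 1.89 in c-MYC/FOXO1AAA, which is -7.79 ± 0.47 on the log2 scale (SE, limma, adjusted p = 3.26e-07). Its difference between the tumours was 1.19 ± 0.50 and became a call only without c-MYC 3 (1.89, limma, adjusted p = 0.00243). Hsd17b2, which inactivates estradiol and testosterone, read 165, 161, 175 and 157 in NL, 50.9, 51.4 and 46.2 in c-MYC and 3.69, 4.93 and 14.7 in c-MYC/FOXO1AAA, with -2.94 ± 0.39 between the tumours (limma, adjusted p = 0.000461). The lipid droplet enzymes Hsd17b11 and Hsd17b13 went the same way, with 25.2 to 30.9 and 19.9 to 31.9 FPKM in c-MYC and 9.12 to 15.8 and 6.17 to 13.1 in c-MYC/FOXO1AAA. Hsd17b7, of cholesterol synthesis, stepped down from 25.9 to 33.9 FPKM in NL to 7.88 to 11.7 and then 2.48 to 2.78.

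The other 3 of this class tested act in fatty acid or amino acid metabolism. Hsd17b4, the peroxisomal multifunctional enzyme, fell by 2.26 ± 0.08 in c-MYC (SE, limma, adjusted p = 2.87e-08), Hsd17b10, of mitochondrial isoleucine breakdown and tRNA processing, by 1.16 ± 0.13 (adjusted p = 0.00136) and Hsd17b12, of very-long-chain fatty acid elongation, by 1.38 ± 0.09 (adjusted p = 1.66e-05). None of the 3 was called between the tumours, with differences of -0.69 ± 0.09, -0.43 ± 0.13 and -0.05 ± 0.10. The low members Hsd17b1 and Hsd17b14 went apart. Hsd17b1, which makes estradiol, held 24 reads in NL, 3 in c-MYC and 50 in c-MYC/FOXO1AAA, a ratio of 11.3 (95% counting interval 3.44 to 58.8) between NL and c-MYC and of 12.5 (4.04 to 62.6) between the tumours. Hsd17b14 read 0.0846 to 0.214 FPKM in NL, 0.502 to 1.95 in c-MYC and 0.412 to 0.467 in c-MYC/FOXO1AAA.

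Taking both steps side by side, with the c-MYC libraries shared between them, 9 members were called lower in c-MYC against NL and higher in c-MYC/FOXO1AAA against c-MYC. They were Adh1, Aldh1a1, Aldh1a7, Akr1b8, Akr1c6, Akr1c14, Akr1c20, Hsd3b3 and Hsd3b5. A further 13 were called lower in both steps, and 14 were called lower in c-MYC and not called between the tumours. The 3 called higher and then lower were Aldh1b1, Akr1c18 and Hsd3b1. Akr1c18 and Hsd3b1 passed the filter only through c-MYC, so the direction of both their calls follows from the filter. Of all 14017 genes tested, 6.15% were called lower and then higher, 3.7% lower in both steps, 13.7% lower and then not called, and 3.3% higher and then lower. Among those called lower in c-MYC, the share called higher in the second step was 25% of the members and 26.1% of all genes, and the share called lower again was 36.1% and 15.7%.

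Of the 9, Akr1b8 alone came back to its NL level (100% of the NL mean), and the other 8 stood at 0.66% to 6.15% of it. Some marker genes of normal liver stood at shares in the same span in these libraries. Cyp2e1, a pericentral ethanol-oxidising enzyme, was at 0.605% to 1.11% of NL in c-MYC/FOXO1AAA and 0.0363% to 0.355% in c-MYC, and Cyp2f2, a periportal enzyme, at 0.596% to 0.86% and 0.122% to 0.2%. Clec4f, a marker of the resident macrophages of normal liver, was at 6.14% to 12.2% and 0.681% to 3.54%. It was the 1 of 7 Kupffer cell and macrophage markers called higher between the tumours, Timd4 was called lower (-3.38), Cd68 stood at 268% to 441% of NL in c-MYC/FOXO1AAA and 458% to 539% in c-MYC, and the summed list overlapped, at 16.9% to 27.5% and 20.6% to 25.1%. Over the 1334 genes with at least 100 FPKM in NL, the 5th percentile of the share left was 0.783% to 1.1% in the c-MYC/FOXO1AAA libraries and 0.157% to 0.449% in the c-MYC libraries, while the median share ran the other way, at 25% to 29.4% and 42.5% to 46.7%.

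The marker lists as a whole were divided on this point. Between the tumours, 4 of 8 pericentral and 2 of 8 periportal hepatocyte markers and 4 of 6 male-biased liver genes were called higher in c-MYC/FOXO1AAA. In the same lists 0 pericentral, 6 periportal and 1 male-biased were called lower. Of 8 general hepatocyte markers, 0 were called higher and 7 lower. The summed pericentral list stood at 1.34% to 1.69% of NL in c-MYC/FOXO1AAA and 1.14% to 1.43% in c-MYC, the periportal list at 1.08% to 2.42% and 13.1% to 15.3%, and the male-biased list at 2.43% to 3.52% and 0.799% to 1.38%.

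A residue of normal liver RNA was imitated, after the data had been seen, by adding 0.928% of the NL mean, the average of those 5th percentiles over the c-MYC/FOXO1AAA libraries, to every c-MYC library. The members called higher between the tumours then went from 11 to 5, and the members called lower were 18 in both cases. Adh1 kept a difference of 1.25 (limma, adjusted p = 0.0157) and Aldh1a1 one of 1.27 (adjusted p = 0.018). Akr1b8 at 3.15, Akr1b10 at 2.07 and Aldh3a1 at 5.02 hardly moved, since NL holds little of them. Akr1c14, Akr1c20, Aldh1a7 and Hsd3b3 lost their calls, with values of 0.52, 0.75, 1.27 and 0.13, while Akr1c6 went to -0.01 and Hsd3b5 to -0.60. The share was taken from the c-MYC/FOXO1AAA levels of genes abundant in NL, several of these members among them. Members near that share in c-MYC/FOXO1AAA therefore had to lose their difference, and those scarce in NL could hardly move. The drop in calls follows from that construction and does not sort the members by origin. Whether normal liver tissue was present in these tumour samples was not tested.

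**Figure D3:**
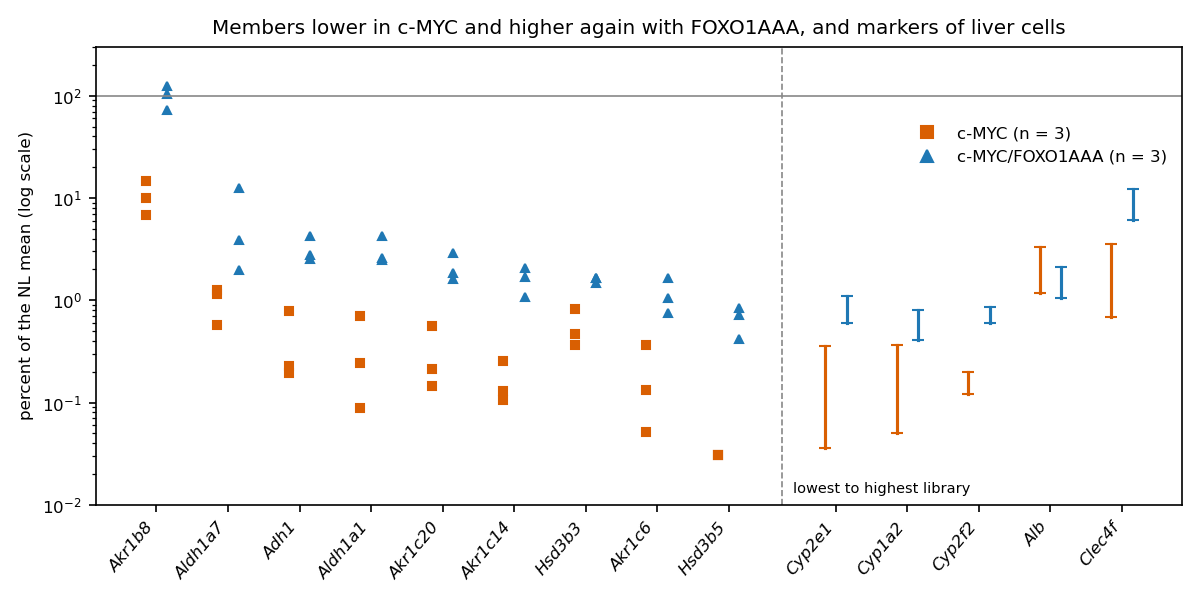
Level as percent of the NL mean (log scale) in each tumour library for the 9 members lower in c-MYC and higher again in c-MYC/FOXO1AAA (points, left of the dashed line), and the lowest to highest library for 5 liver cell markers (bars, right). Apart from Akr1b8, the c-MYC/FOXO1AAA points of the members lie between 0.419% and 12.6%, and the c-MYC/FOXO1AAA bars of the 5 markers between 0.405% (Cyp1a2) and 12.2% (Clec4f). The c-MYC points of Hsd3b5 hold no reads and show the prior count. The 5 markers were picked from longer lists, in which 6 of 8 periportal and 7 of 8 general hepatocyte markers were called lower in c-MYC/FOXO1AAA against c-MYC.

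Single libraries leaned the same way over many members. Of the 9 members just described, c-MYC 3 was the highest c-MYC library for 7, and c-MYC/FOXO1AAA 2 the highest of its group for 6. Of the 18 members called lower in c-MYC/FOXO1AAA against c-MYC, c-MYC/FOXO1AAA 3 was the highest of its group for 14 and c-MYC/FOXO1AAA 1 the lowest for 14. Aldh1b1, Akr1c19 and Hsd17b2 show the size of that lean, at 105, 5.35 and 14.7 FPKM in c-MYC/FOXO1AAA 3 against at most 30.5, 1.28 and 4.93 in the others. Without c-MYC/FOXO1AAA 3 the count of members called lower between the tumours was 18, and without c-MYC/FOXO1AAA 1 or c-MYC/FOXO1AAA 2 it was 13.

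Genes that work beside the members were read from 7 lists. Of all genes tested, 23.6% were called lower and 24.5% higher in c-MYC against NL, and 12.7% and 15.9% in c-MYC/FOXO1AAA against c-MYC. Of 23 other retinoid genes tested, 16 were called lower and 3 higher in c-MYC against NL, and 11 lower and 4 higher in c-MYC/FOXO1AAA against c-MYC. Rdh7, which oxidises retinol ahead of Aldh1a1, stood at 1121 ± 34.6 FPKM (NL, SD, n = 4), 3.96 ± 1.38 in c-MYC and 17.7 ± 6.01 in c-MYC/FOXO1AAA (n = 3 each), 2.15 ± 0.28 above c-MYC with FOXO1AAA (SE, limma, adjusted p = 0.00063). Its relatives Rdh16 and Rdh16f2 changed by -8.43 ± 0.53 and -8.93 ± 0.41 in c-MYC (limma, adjusted p = 3.63e-07 and 3.14e-08) and were not called between the tumours. Adh1, Aldh1a1, Rdh7, Rdh16 and Rdh16f2 all had c-MYC means under 1% of NL.

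Of 5 ethanol and acetate genes, 4 were called lower and 1 higher in c-MYC, and 3 lower and 1 higher between the tumours. Cyp2e1, the microsomal ethanol oxidase, went from 7752 ± 874 FPKM in NL (SD, n = 4) to 13.4 ± 12.7 in c-MYC and 63.5 ± 20 in c-MYC/FOXO1AAA (n = 3 each). Acss1, which activates acetate in mitochondria, rose from 1.85 ± 1.60 FPKM to 44.7 ± 8.62 in c-MYC (limma, adjusted p = 0.000964) and stood at 2 ± 2.26 in c-MYC/FOXO1AAA. Like Aldh1b1 it was highest in c-MYC. Acss3 fell by 4.68 ± 0.40 (limma, adjusted p = 4.65e-06).

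Of 17 other steroid-metabolising genes, 14 were called lower and 0 higher in c-MYC, and 5 lower and 4 higher between the tumours. Sult2a8, a bile acid and steroid sulfotransferase, stood at 1814 ± 33.2 FPKM (NL, SD, n = 4), 1.61 ± 0.90 in c-MYC and 10.2 ± 1.47 in c-MYC/FOXO1AAA (n = 3 each), which is the order of Akr1c6. Srd5a2, a steroid 5α-reductase, fell by 4.26 ± 0.27 (SE, limma, adjusted p = 5.37e-07).

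Of 16 NRF2 target genes, which respond to electrophiles such as the aldehydes these enzymes clear, 8 were called lower and 3 higher in c-MYC, and 3 lower and 3 higher between the tumours. The 3 with the largest changes, Me1, Srxn1 and Ephx1, each fell in c-MYC and rose between the tumours, by 2.30 ± 0.33, 3.22 ± 0.22 and 2.38 ± 0.24 (SE, limma, adjusted p = 0.00102, 2.83e-06 and 8.24e-05). The list did not rise with them. Its median between the tumours was -0.51 against 0.03 over all genes, and its sum stood at 29.7% to 35.7% of NL in c-MYC/FOXO1AAA and 47.5% to 48.3% in c-MYC. Of 8 fatty aldehyde and plasmalogen genes, 4 were called lower and 3 higher in c-MYC, and 2 lower and 2 higher between the tumours. Agmo, which makes fatty aldehydes from alkylglycerols for Aldh3a2, fell by 6.46 ± 0.31 in c-MYC (limma, adjusted p = 4.56e-08). Acot1, a cytosolic acyl-CoA thioesterase, rose from 10.9 ± 1.61 to 59.7 ± 11 FPKM in c-MYC (SD) and stood at 4.77 ± 4.06 in c-MYC/FOXO1AAA. Of the 6 polyol genes, 4 fell again in c-MYC/FOXO1AAA, with Khk, the fructose kinase, at 740 ± 94.3, 64.1 ± 7.23 and 24.9 ± 6.30 FPKM in the 3 groups.

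The start-proximal windows, printed above for 6 genes, were matched by symbol for 40 of the 52 members, 38 of them tested. A CpG ratio (CpG dinucleotides observed over those expected from the base composition) of at least 0.6, a bound chosen after the data had been seen, was found in 9 of the 38 members (23.7%) and in 66% of the 10145 tested genes with a window. Those 9 members had a median log2 fold change of -1.39 in c-MYC against NL, with a range of -2.29 to 0.20, and the other 29 a median of -4.03 and a range of -11.64 to 5.45. Over all tested genes the 2 medians were 0.24 and -0.35. In c-MYC/FOXO1AAA against NL the members' medians were -2.28 and -4.65. Across the 38 genes, which are not independent replicates, Spearman's rho between the CpG ratio and the log2 fold change was 0.59 in either tumour group against NL, and across the 10145 genes 0.19 and 0.16. In c-MYC/FOXO1AAA against c-MYC it was -0.3 across the members and -0.02 across all, and the members' medians were -0.95 in the CpG-rich class and 0.11 in the other.

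**Figure D4:**
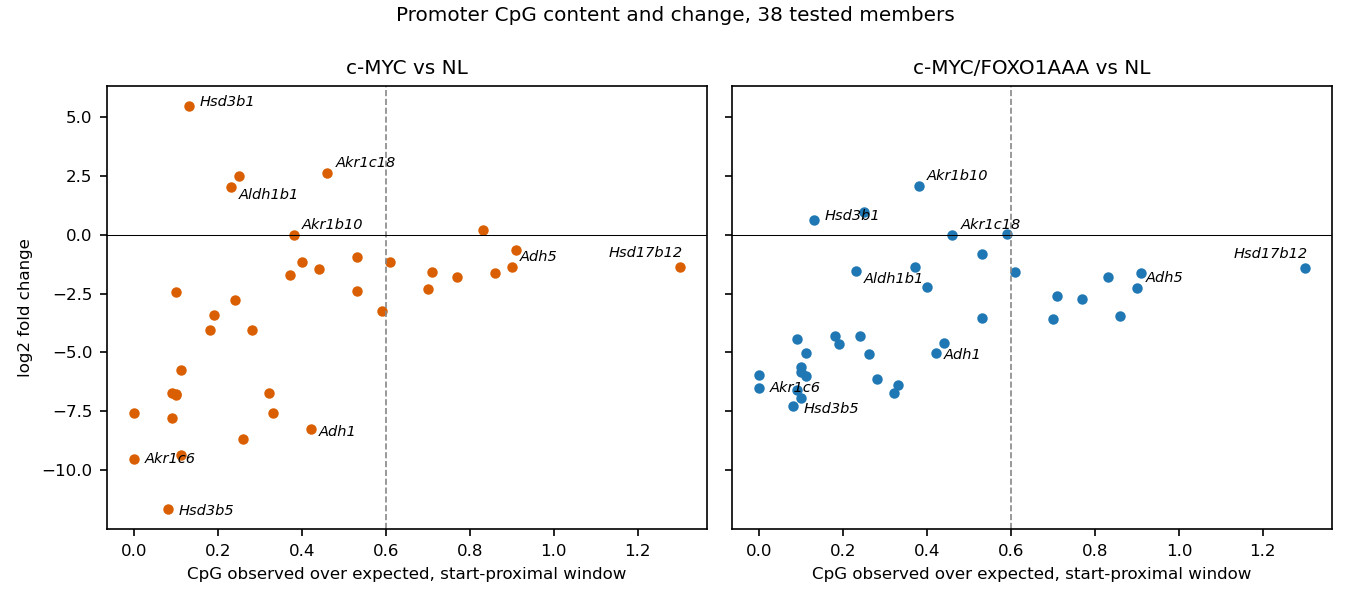
CpG observed over expected in the start-proximal window (horizontal axis) and log2 fold change against NL (vertical axis) of the 38 tested members with a window, for c-MYC (left) and c-MYC/FOXO1AAA (right). The dashed line marks 0.6. The 9 members to its right, such as Adh5 and Hsd17b12, changed by at most 2.29 in c-MYC and 3.58 in c-MYC/FOXO1AAA, while those to its left range from Hsd3b5 at -11.64 to Hsd3b1 at 5.45.

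Among the rich windows were those of Adh5, Hsd17b12, Aldh16a1, Hsd17b7, Aldh5a1, Aldh3a2, Akr7a5, Hsd17b11 and Hsd17b10. Motifs were searched on both strands as exact letters, and a match describes the window without being a binding site. The E-box CACGTG, the core recognised by MYC, was in 7.5% of 40 member windows, 7.2% of all 27025 windows and 10.3% of the windows of tested genes, and in Adh1 it begins 4 bases after the start site. The forkhead motif GTAAACA was in 12.5% of member windows, 3.51% of all and 2.64% of those of tested genes, in none of the 6 printed ones. The member windows with it were those of the neighbours Akr1b7 and Akr1b10, the neighbours Akr1c12 and Akr1c13, and Hsd11b1. Of these Akr1b10 alone was called between the tumours, and Akr1b7 was not tested. CCAAT was in 62.5%, 37.9% and 38.8%, in Hsd3b1 at 5 and in Akr1c6 at 57 bases before the start site. TATAAA was in 10%, 14.2% and 7.57%, so that the members lay below all windows and above those of tested genes, in Akr1c6 at 164 bases before the start site, and the antioxidant-response core TGACNNNGC in 17.5%, 12.5% and 14.5%. These motifs do not overlap each other in the printed windows.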

How the data were processed

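RNA sequencing of 10 libraries (4 NL, 3 c-MYC and 3 c-MYC/FOXO1AAA) was deposited by the authors as log2 FPKM, and the processing notes in the labels name FastQC 0.11.7 and the build GRCm38. The study analysed counts with edgeR, and the aligner and counter are not given in the sources used here. The values showed that a prior count of 2, scaled to library size, had been added before the logarithm, so fold changes of low genes are understated. Whole reads were recovered for 99.68% of genes (within 0.02 reads of a whole number) and served for depth, floors and counting intervals only. The 372 entries with neither a symbol nor values were left out, and no column of values was unused.

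limma 3.58.1 under R 4.3.3, with statmod 1.5.0, estimated the 3 group means from the 10 libraries together, over the 14017 genes at 1 FPKM or more in at least 3 libraries. Changes beyond 1.5-fold in either direction were sought with treat, using trend and robust estimation and Benjamini-Hochberg adjustment over all genes tested. The members, gene lists and rules were chosen with earlier results of these data known. Named members were the 3 highest in NL and the highest in each tumour group of every enzyme class, the 5 largest non-overlapping calls in each direction and comparison, those called in opposite directions, and any of at least 10 FPKM in a tumour group that lay above NL. Other members are given by their ranges, and of each list the 3 genes with the largest called changes. Alternatives changed the pseudocount, the filter, the scaling, the fold threshold, the variance model, the groups fitted, the replicate block and the libraries. The test was checked on simulated data. Promoter sequences are from RefSeq, and protein sequences were not used here. Python 3.11.15, numpy 2.4.6, pandas 2.3.3 and matplotlib 3.10.9 were used.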

Additional observations from a re-analysis of the deposited data

Results flagged for a closer look

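In 5 of the 52 members an NL library stood far from the other 3, its gap to the nearest over the whole range being 0.838 to 0.874, above Dixon's 95% bound for 4 samples. Chance alone gives such a gap in about 1 of 20 groups. Aldh4a1 was lowest in NL 2, at 107 FPKM against 110 in each of the others, and Akr1c6 was lowest in the same library, at 2444 against 2568 to 2587. Akr1e1 was lowest in NL 1, at 13.8 against 14.7 to 14.8. Akr1b7 was highest in NL 4, at 0.527 against 0.0924 to 0.163, and Adh6-ps1 was lowest in NL 3, at 0.3 against 0.765 to 0.854. In Aldh4a1, Akr1e1 and Akr1c6 the gap was small beside the change in the tumours, and Akr1b7 and Adh6-ps1 held 6 and 71 reads over the 4 NL libraries.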

How the results depend on the processing

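Over 2292 fold changes of the 35 named members that were tested, under the alternatives chosen with the design, 2169 kept their direction and their side of the threshold, 101 lost their call, 19 gained one and 3 changed direction. The 3 were Akr1a1 with the same FPKM total in every library (0.0 in c-MYC against NL and 0.29 in c-MYC/FOXO1AAA against NL) and with quantile normalization (0.26 in the latter). The same FPKM total left 23 members lower in c-MYC against NL in place of 36. A mean of at least 5 FPKM left 2 higher in c-MYC and 1 higher in c-MYC/FOXO1AAA against NL, with fewer genes tested, and no filter on low values gave 5 in the latter. A 2-fold threshold left 3 higher in c-MYC against NL and 9 lower in c-MYC/FOXO1AAA against c-MYC. Adding a share of the NL mean to c-MYC, an alternative chosen after seeing the data, left 5 higher in c-MYC/FOXO1AAA against c-MYC, with Akr1c6 at -0.01 and Hsd3b5 at -0.60. That drop follows from how the share was taken. For the other alternatives, apart from those whose construction removes genes, the cause was not tested.

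Leaving out each library in turn gave 4 to 5 higher and 36 lower in c-MYC against NL, 10 to 14 higher and 13 to 18 lower in c-MYC/FOXO1AAA against c-MYC, and 3 higher and 36 to 38 lower in c-MYC/FOXO1AAA against NL. With the replicate number as a block the counts were 4 and 36, 11 and 15, and 3 and 36, with Akr1c18 lost from the first comparison, Adh5, Akr1c18 and Aldh16a1 from the second and Akr1a1 from the third, but the numbers paired no samples, since same-numbered libraries correlated at -0.04 to 0.027 in their deviations from the group means. Groups of 3 and levels near the prior count limit the low members.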
